A study of Mus musculus with 6 samples.

Results

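The genes followed here act in lipid uptake, binding and lipolysis, and they were measured on 6 expression arrays of mouse soleus muscle. They were Cd36, Vldlr, Lpl, Fabp3, Fabp4 and Lipe, chosen by name as the probes that the platform annotation assigns to these genes. The annotation gave 1 probe to each, so the set held 6 of the 223 probes on the array. Of these, 205 probes for 203 genes were assigned to a single gene. The arrays were of soleus, a postural calf muscle, of C57Bl/6 mice. The labels describe every sample as a control mouse, number the samples 1 to 6 and add the unexplained title code "HUR wt". Total RNA had been prepared with the RNeasy kit from cryosections, and 3 µg went onto each array. Age, sex and treatment are not given in the labels, nor is it stated that each array came from a separate mouse, so p-values measure only the spread between these samples, which may be technical. All samples form 1 group, and the values below describe levels and their spread in control muscle with no comparison between conditions.

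Muscle takes up fatty acids that are bound to albumin or released from circulating lipoproteins. Lipoprotein lipase, the product of Lpl, cleaves lipoprotein triglyceride at the capillary wall, and the receptor encoded by Vldlr binds triglyceride-rich lipoproteins beside it. The membrane protein Cd36 helps fatty acids to enter the cell, binding proteins of the Fabp family carry them through the cytosol, and hormone-sensitive lipase, the product of Lipe, releases fatty acids from stored lipid. Fabp3 is the binding protein of heart and skeletal muscle, while Fabp4 is known from adipocytes, capillary endothelium and macrophages. In RNA of whole muscle sections, fewer cells of a type and less RNA per cell cannot be told apart.

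Many genes of fatty acid handling respond to PPAR receptors, which bind DNA repeats built from the half-site AGGTCA, and muscle transcription factors of the MyoD family bind the E-box CANNTG. The RefSeq promoter table (GRCm38.p6) held 4 of the 6 genes, Cd36, Fabp3, Lipe and Vldlr. The 250 bases before the annotated start are shown for Cd36 and Fabp3, the membrane and the cytosolic fatty acid carrier of muscle. Capitals mark matches to AGGTCA or CANNTG on either strand. The Cd36 sequence is chr5:17835897-17836146 on the minus strand, and the Fabp3 sequence is chr4:130308488-130308737 on the plus strand.
Cd36: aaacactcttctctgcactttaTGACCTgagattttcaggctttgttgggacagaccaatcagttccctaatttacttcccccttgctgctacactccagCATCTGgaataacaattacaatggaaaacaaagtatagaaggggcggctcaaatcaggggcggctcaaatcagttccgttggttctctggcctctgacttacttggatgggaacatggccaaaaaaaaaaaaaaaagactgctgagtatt
Fabp3: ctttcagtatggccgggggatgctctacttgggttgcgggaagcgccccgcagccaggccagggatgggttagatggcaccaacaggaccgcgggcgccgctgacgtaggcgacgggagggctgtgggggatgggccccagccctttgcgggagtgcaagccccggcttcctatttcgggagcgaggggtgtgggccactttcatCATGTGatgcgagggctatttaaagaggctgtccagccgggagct
The Cd36 window held 1 half-site, read as TGACCT and beginning 228 bases before the start, and 1 E-box, CATCTG, 150 bases before it. The Fabp3 window held 0 half-sites and 1 E-box, CATGTG, 45 bases before the start. Of the 32851 promoters of this length in the table, 14.0% held the half-site and 66.2% an E-box, and the 2 motifs did not overlap in either window. These matches describe the letters of the window and say nothing of binding.

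Signal over background differed sharply between Lipe and the other members. The deposited values are linear intensities, some of them negative. As noise bound of an array the size of its most negative value was taken. Cd36, Vldlr, Lpl, Fabp3 and Fabp4 lay above the bound on all 6 arrays, as did 47.5% of all 223 probes. Lipe lay above it on 2 arrays.

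Among the genes of uptake, Cd36 had intensities of 36.3, 64.1, 78.8, 115.6, 85.1 and 128.9 times the bound in controls 1 to 6. The lowest was in control 1 and the highest in control 6. Vldlr was the dimmest of the 5 against the bound, with 11.3, 7.42, 14.5, 18.0, 14.9 and 18.8 times the bound. Its weakest array, control 2, was still several times over background. The secreted lipase Lpl had 58.6, 28.8, 70.0, 55.6, 57.8 and 71.8 times the bound. Here, too, control 2 was lowest, and control 2 had the largest bound relative to its array median of the 6, 0.434 against 0.112 to 0.211 on the other arrays.

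Both binding proteins were well above background. Fabp3 had 26.9, 39.0, 77.6, 35.9, 56.4 and 63.2 times the bound, highest in control 3 and lowest in control 1. Fabp4 had 27.4, 24.2, 26.7, 38.7, 27.0 and 28.7 times the bound, highest in control 4 and close together on the remaining arrays.

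The lipolysis gene Lipe had 0.265, 1.16, 0.152, 1.79, -0.0435 and -0.111 times the bound. Only controls 2 and 4 exceeded it, at raw intensities of 0.0072 and 0.0156, and these were the arrays with the largest bounds, 0.0062 and 0.0087. On controls 5 and 6 the intensity was below 0. Lipe was therefore not detectable over background on 4 of the 6 arrays, which does not show that the transcript was absent. It was left out of the levels, spreads and correlations below, which cover 5 of the 6 members.

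**Figure D1:**
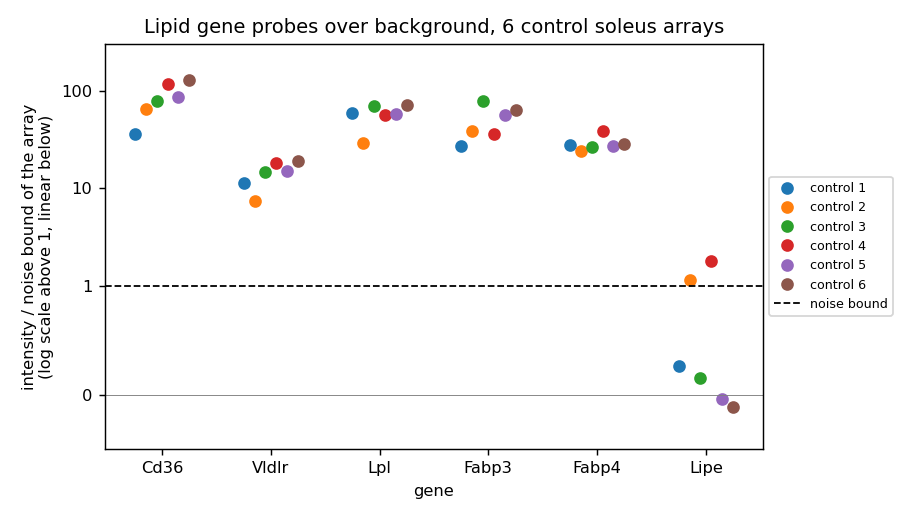
Intensity of each probe divided by the noise bound of its array, for the 6 genes (horizontal axis) on the 6 control arrays (coloured points), with a vertical axis that is logarithmic above 1 and linear below; the dashed line is the bound. The points of 5 genes lie between 7.42 and 128.9 times the bound, and Lipe exceeds the bound in controls 2 and 4 only.

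To compare arrays, intensities were brought to log2 and each array was centred on the median of the 152 genes and unnamed probes with a value above 0 on all 6 arrays. Array medians differed 4.15-fold before this step. A level is thus counted from the array median and includes the affinity of the probe, so levels of different genes do not rank their transcripts.

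After centring, all 5 measured members had their highest level in control 2. Cd36 had levels of 2.94, 4.80, 3.43, 4.08, 3.25 and 3.85 in controls 1 to 6. The mean was 3.73 ± 0.67 (SD, n = 6), with control 2 highest, control 1 lowest and 3.63-fold between them. Vldlr had levels of 1.25, 1.69, 0.99, 1.40, 0.74 and 1.08. Its mean was 1.19 ± 0.33 (SD, n = 6), and the highest and lowest arrays, controls 2 and 5, were 1.93-fold apart. Lpl had levels of 3.63, 3.64, 3.26, 3.03, 2.69 and 3.01. Its mean was 3.21 ± 0.38 (SD, n = 6), and controls 1 and 2 were nearly equal at the top, 1.93-fold above control 5.

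The binding proteins spread further. Fabp3 had levels of 2.51, 4.08, 3.41, 2.40, 2.66 and 2.83, with a mean of 2.98 ± 0.65 (SD, n = 6). Control 2 stood highest and control 3 next, and the remaining 4 arrays lay close together, with 3.21-fold between control 2 and control 4. Fabp4 had levels of 2.53, 3.39, 1.87, 2.51, 1.59 and 1.69, with a mean of 2.26 ± 0.68 (SD, n = 6). Controls 1, 2 and 4 were above controls 3, 5 and 6, and control 2 was 3.47-fold above control 5.

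The shared maximum in control 2 was common among genes of this brightness. Over all 152, 27% were highest in control 2, and of the 48 with a mean level at least that of Vldlr, 50% were. Vldlr, Lpl and Fabp4 had their lowest level in control 5, as did 38.2% of all 152 and 64.6% of the 48. Control 2 also had the fewest probes above the noise bound, 109 against 143 to 166 on the other arrays, and the part of this in the levels of control 2 was not tested. After quantile or cyclic loess normalization 4 of the 5 members were still highest in control 2, and without centring, where the brightness of control 4 dominates, 0 were.

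**Figure D2:**
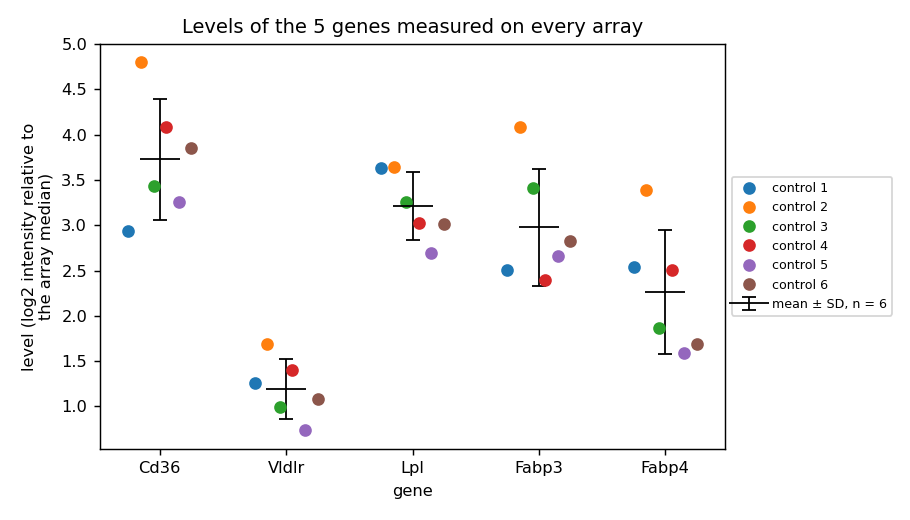
Levels of the 5 genes measured on all arrays, as log2 intensity relative to the array median (vertical axis), for each gene (horizontal axis), with a point for each control array and the mean ± SD over the 6 arrays. The orange point of control 2 is the highest of every gene, from 1.69 for Vldlr to 4.80 for Cd36.

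No member passed the test for excess spread. The SDs of 0.67 for Cd36, 0.65 for Fabp3 and 0.68 for Fabp4 lay above the median SD of 0.54 over the 152, and those of 0.38 for Lpl and 0.33 for Vldlr lay below it. Over the 48 genes at least as bright as Vldlr the median SD was 0.46, and the same 3 members lay above it. The median over the 5 was 0.65. A one-sided F test of each variance against limma's prior variance, with Benjamini-Hochberg adjustment over the 152, called 0 of the 5 members, against 1.32% of all genes. The adjusted p-values in limma were 0.911 for Cd36, Fabp3 and Fabp4, 0.961 for Lpl and 0.974 for Vldlr. An unadjusted p under 0.05 in this F test was reached by 0 of the 5 members and by 9 of the 152. Without control 2 the SDs of Cd36, Fabp3 and Fabp4 were 0.45, 0.44 and 0.43.

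Co-variation of the members was described for their 10 pairs and tested within the whole table. For each of the 11476 pairs of genes, Pearson's r and Spearman's rho over the 6 arrays were set against all 720 pairings in an exact two-sided permutation test, and p-values were adjusted over all pairs. Adjusted p reached 0.05 for 0 of the 11476 pairs by r or by rho, with lowest values of 0.192 and 0.199, while 1912 pairs by r and 1330 by rho had an unadjusted exact p under 0.05. All 10 member pairs had a positive r, with a median of 0.63, against 52.7% of all pairs, whose median was 0.06. Among pairs of the 48 genes at least as bright as Vldlr, 63.6% were positive and the median was 0.32. By rho the 10 pairs were positive too, against 52.9% of all pairs and 66% of those bright pairs.

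Vldlr and Fabp4 had the highest r of the 10 pairs. Both ran from control 2 at the top to control 5 at the bottom, with r = 0.945 (exact permutation p = 0.00556, or 0.202 after adjustment) and rho = 0.886 (exact p = 0.0333, or 0.288 after adjustment). Without controls 2 and 5, which lay farthest from the median of Vldlr, r was 0.869. Over the other normalizations and filters it lay between 0.897 and 0.988, and with 1 array left out between 0.850 and 0.971. It was the only 1 of the 10 pairs with an unadjusted exact p under 0.05 by r, which 9.53% of all pairs and 15.4% of the bright pairs reached with a positive r. This count was 3 without control 1, 0 without control 2, 2 without control 3 and 7 without centring.

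Lpl had lower r with Fabp4 and with Vldlr. Lpl and Fabp4 had r = 0.778 (exact permutation p = 0.0625, or 0.315 after adjustment) and rho = 0.943 (exact p = 0.0167, or 0.254 after adjustment), with r = 0.354 without controls 1 and 2. Vldlr and Lpl had r = 0.722 (exact permutation p = 0.113, or 0.392 after adjustment) and rho = 0.714 (exact p = 0.136, or 0.459 after adjustment). Without controls 2 and 5 this r was 0.0102. With the remaining arrays filtered and centred anew, it was 0.632 without control 2 alone and 0.490 without control 5 alone. Leaving out the arrays farthest from the median of Vldlr narrows its range. The fall therefore does not show that r rested on them. After cyclic loess r was 0.492 for Lpl and Fabp4 and 0.385 for Vldlr and Lpl. By rho, 2 of the 10 pairs, Vldlr with Fabp4 and Lpl with Fabp4, had an unadjusted exact p under 0.05. Of all 11476 pairs, 6.54% had both a positive rho and an unadjusted exact p under 0.05. This share by rho was not computed for the bright pairs.

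Cd36 had a higher r with Vldlr than with the lipase Lpl. Cd36 and Vldlr had r = 0.735 (exact permutation p = 0.0972, or 0.369 after adjustment) and rho = 0.657 (exact p = 0.175, or 0.509 after adjustment), with r = 0.941 without controls 1 and 2. With control 2 alone left out and the remaining arrays filtered and centred anew, r was 0.338. Over the other normalizations and filters it ran from 0.206 after quantile normalization to 0.892 without centring. Cd36 and Lpl had the lowest r of the 10 pairs, 0.217 (exact permutation p = 0.674, or 0.843 after adjustment), and rho = 0.257 (exact p = 0.658, or 0.866 after adjustment). It was negative after quantile normalization, at -0.394, and after cyclic loess, at -0.470, and it was 0.297 without controls 1 and 2. The difference between these correlations was not tested.

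For Fabp3, the muscle binding protein, 3 of its 4 pairs changed sign when control 2 was left out. Cd36 and Fabp3 had r = 0.625 (exact permutation p = 0.185, or 0.475 after adjustment) and rho = 0.371 (exact p = 0.497, or 0.783 after adjustment), and r was -0.504 without controls 1 and 2. Lpl and Fabp3 had r = 0.496 (exact permutation p = 0.297, or 0.581 after adjustment) and rho = 0.371 (exact p = 0.497, or 0.783 after adjustment), with 0.637 without controls 1 and 2. Vldlr and Fabp3 had r = 0.438 (exact permutation p = 0.383, or 0.650 after adjustment) and rho = 0.0286 (exact p = 1, or 1 after adjustment), with -0.915 without controls 2 and 5. For Cd36 and Fabp4, r was 0.631 (exact permutation p = 0.186, or 0.476 after adjustment) and rho 0.371 (exact p = 0.497, or 0.783 after adjustment), with 0.740 without controls 1 and 2. Over the other normalizations and filters the lowest r was 0.500 for Cd36 and Fabp3, 0.112 for Lpl and Fabp3, 0.0451 for Vldlr and Fabp3 and 0.274 for Cd36 and Fabp4. With control 2 alone left out, 5 of the 10 pairs stayed positive, and r was negative for Cd36 with Fabp3, with Fabp4 and with Lpl, and for Fabp3 with Vldlr and with Fabp4.

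**Figure D3:**
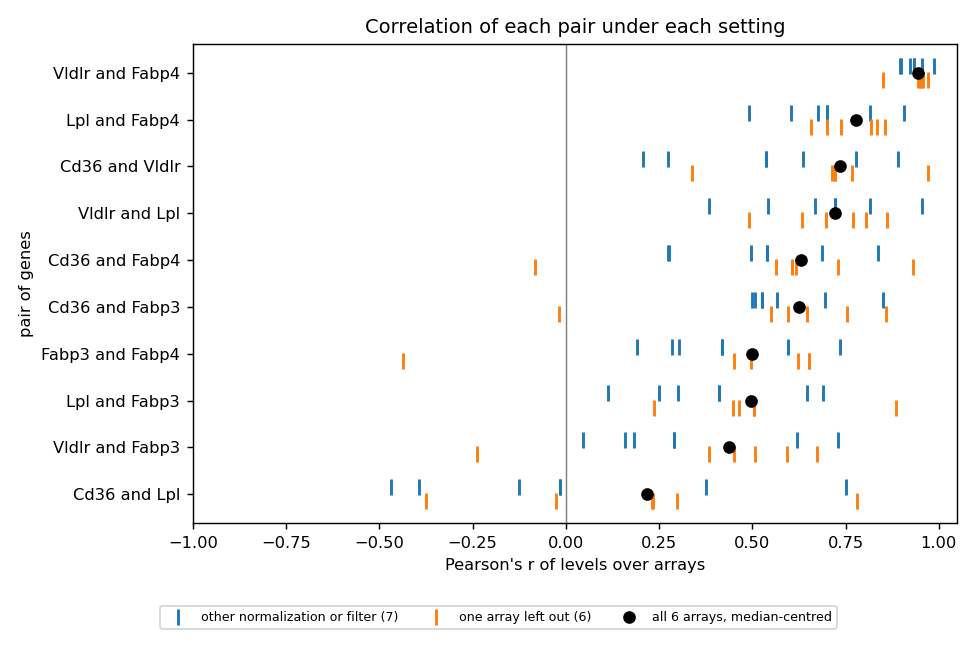
Pearson's r of the levels of each of the 10 pairs (vertical axis) over the arrays (horizontal axis), with all 6 arrays and median centring (black points), under 7 other normalizations or filters (blue ticks) and with 1 array left out (orange ticks). The ticks of Vldlr and Fabp4 stay between 0.850 and 0.988, while those of Cd36 and Lpl reach from -0.470 to 0.780.

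The muscle and the adipocyte or endothelial binding protein were set against each other within each array, where the scaling of the array cancels. The log2 ratio of the Fabp3 to the Fabp4 probe was -0.0281, 0.689, 1.54, -0.111, 1.06 and 1.14 in controls 1 to 6. Controls 1 and 4 had nearly equal intensities of both probes, controls 3, 5 and 6 had 2.91, 2.09 and 2.20 times the Fabp4 intensity on the Fabp3 probe, and control 2, with 1.61 times, lay between. The mean was 0.72 ± 0.67 (SD, n = 6), and the ratio changed 3.14-fold from control 4 to control 3. The size of the ratio carries the affinity of each probe, so only its change between arrays can be read.

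The ratio did not stand out in its spread. Its SD was larger than that of 38.5% of all 11476 pairs of genes and of 63.7% of the 1128 pairs of the 48 bright genes. Of the 10 member pairs, the ratio of Vldlr to Lpl had the smallest SD, 0.27, and the ratio of Cd36 to Lpl the largest, 0.69. The SD of 0.27 was below that of all but 4.03% of all 11476 pairs. The median SD of a ratio was 0.80 over all pairs and 0.56 over the pairs of the 48 bright genes. Fabp3 and Fabp4 had r = 0.499 (exact permutation p = 0.349, or 0.623 after adjustment) and rho = 0.143 (exact p = 0.803, or 0.936 after adjustment). With the remaining arrays filtered and centred anew, r was -0.437 without control 2 and 0.652 without control 3. On the levels centred over all 6 arrays, it was -0.863 without both. The sign was thus negative in both settings that lacked control 2. Controls 3, 5 and 6, with the higher ratios, had low Fabp4 levels of 1.59 to 1.87, while controls 1 and 4, with the lower ratios, had Fabp4 levels of 2.51 to 2.53 and the lowest levels of Fabp3.

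**Figure D4:**
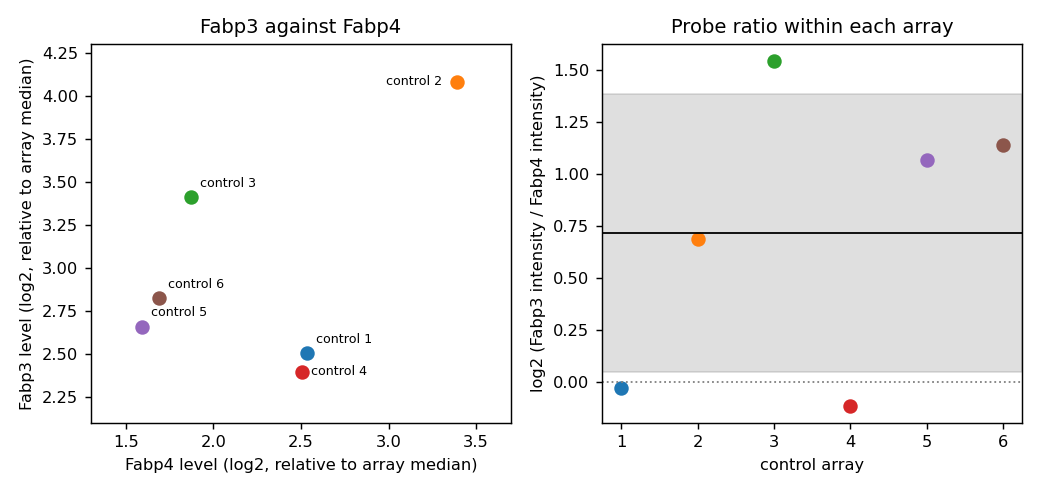
Left, level of Fabp3 (vertical axis) against that of Fabp4 (horizontal axis), both as log2 intensity relative to the array median, with a point for each control array. Right, log2 ratio of the 2 probe intensities within each array, with the mean of 0.72 as a line, 1 SD as a grey band and a ratio of 1 as a dotted line; controls 1 and 4 lie near the dotted line and control 3 is highest at 1.54.

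The genes most like each member by Pearson's r over the 6 arrays were named to place the patterns. Only named genes outside the members were searched. All of those picked lay above the noise bound on all 6 arrays. For Fabp4 they were Dgat1, which makes triglyceride, the muscle transcription factor Mef2a and the mitochondrial carrier Ucp3, with r of 0.965, 0.953 and 0.948. Dgat1 was dim, at 1.44 to 2.78 times the bound. Dgat1 and Ucp3 had the same order of arrays as Fabp4, rho = 1 (exact permutation p = 0.00278, or 0.199 after adjustment). For Vldlr they were the malate dehydrogenase Mdh2, the myogenic factor Myog and the slow myosin Myh7, with r of 0.950, 0.946 and 0.936. The member Fabp4 had a higher r with Vldlr than Myh7 did, 0.945. For Lpl they were the fast myosin Myh4, the growth factor Vegfb and the cell cycle inhibitor Cdkn1a, with r of 0.982, 0.950 and 0.944, and Cdkn1a had the same order of arrays as Lpl.

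Cd36 and Fabp3 had other nearest genes. For Cd36 they were the glucose transporter Slc2a2, the cytochrome c oxidase subunit Cox8a and the growth hormone receptor Ghr, with r of 0.930, 0.930 and 0.911. For Fabp3 they were Cpt1b, which passes fatty acids into mitochondria, the beta-oxidation enzyme Hadh and the carbonic anhydrase Car3, with lower r of 0.838, 0.804 and 0.803. Without controls 2 and 3 these were 0.461, -0.121 and -0.269. The exact permutation p after adjustment was at least 0.192 for all 15 of these relations. Their sign held under all 13 alternatives, which is little support, as they were picked for a high r on these same arrays. Their size did not always hold, as r fell to 0.483 for Lpl and Myh4 after cyclic loess and to 0.382 for Cd36 and Ghr after quantile normalization.

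The array carried few other genes of the pathway. Of 19 genes of fatty acid oxidation and import listed for this purpose, 5 had a probe, Cpt1b, Acadl, Acadm, Hadh and Ucp3, and all 5 exceeded the noise bound on every array. Excess spread was called for 0 of the 5, with SDs from 0.19 for Cpt1b to 0.60 for the acyl-CoA dehydrogenase Acadl. All 5 had a positive r with each of the 5 members. The medians were 0.87 with Vldlr, 0.83 with Fabp4, 0.80 with Fabp3, 0.77 with Cd36 and 0.77 with Lpl. The exact permutation p after adjustment was at least 0.192 for each pair. Of all pairs of genes 52.7% had a positive r, with a median of 0.06. Of the pairs of the 48 bright genes 63.6% did, with a median of 0.32. Without control 2, 3 of the 5 oxidation genes were positive with Fabp3 and 4 with Fabp4, and of the 25 relations in all 20 were positive. After quantile normalization 22 of the 25 were positive, and after cyclic loess 21. With Fabp4 the leading ones were Ucp3 (r = 0.948) and Acadl (r = 0.933), and with Fabp3 they were Cpt1b (0.838) and Hadh (0.804). Without controls 2 and 5, r with Fabp4 was 0.933 for Ucp3 and 0.934 for Acadl. It was -0.940 for Cpt1b, -0.565 for Hadh and -0.280 for Acadm. Without controls 2 and 3, r with Fabp3 was 0.461 for Cpt1b and -0.121 to -0.727 for the others. Leaving out the arrays farthest from the median of a gene narrows its range. The mean level of the 5 oxidation genes was highest in control 2, at 2.37, and lowest in control 5, at 1.14, the same arrays as for Fabp4, Lpl and Vldlr.

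The lipid regulators with a probe were 2 of 11, Ppara and Pparg, and both had a negative r with all 5 members. Of these 10 relations 0 were positive, against 7 without control 2, 10 without centring, 2 after quantile normalization, with the looser filter of 4 arrays or with the noise bound added, and 1 after cyclic loess. Ppara, a receptor of oxidative tissues, lay above the bound on 6 arrays, and Pparg, the adipocyte receptor, on 4. Pparg levels were -2.63, -3.46, -1.57, -1.29, -1.27 and -1.93 in controls 1 to 6, below the bound in controls 1 and 2, where Fabp4 was highest. Pparg has only a bound on these 2 arrays. The r of Fabp4 and Pparg, -0.790 with the values as given, was -0.219 (exact permutation p = 0.676, or 0.845 after adjustment) with the noise bound added, -0.186 without controls 2 and 5 and 0.344 without centring.

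Markers of the cell types that could carry Fabp4 were sparse on the array. Of 9 adipocyte markers 3 had a probe, Fabp4, Pparg and Lipe, and apart from Fabp4 itself these lay below the noise bound on 2 arrays (Pparg) and 4 arrays (Lipe). Of 13 endothelial markers 7 had a probe, 6 were measured on all arrays and 4 lay above the bound on all 6, while Nos3 was not above 0 on all arrays. Flt4 lay below the bound in controls 1 and 2, at 0.441 and 0.516 times its value, and Tek in control 2, at 0.532 times. The mean level of the 4 markers above the bound on all arrays, Kdr, Flt1, Pecam1 and Cdh5, ran from 0.24 in control 1 to 1.17 in control 5, where Fabp4 was lowest. The endothelial growth factor receptor Kdr had r = 0.927 with Fabp4 (exact permutation p = 0.00972, or 0.205 after adjustment) and rho = 0.829 (exact p = 0.0583). On the levels centred over all 6 arrays, r was 0.871 without controls 2 and 5. With control 2 alone left out it was 0.573, but there the remaining arrays were filtered and centred anew, with 169 genes in place of 152. The values 0.871 and 0.573 are therefore not directly comparable. The other 5, Flt1, Flt4, Tek, Pecam1 and Cdh5, had a negative r with Fabp4, from -0.12 for Tek to -0.80 for Flt1. Flt1 was near the bound in controls 1 and 2, at 1.88 and 1.13 times its value, where Fabp4 was highest. The count of positive relations depends on the scaling. It was 2 of the 6 when the noise bound was added, when control 2 was left out and after quantile or cyclic loess normalization. Without centring it was 5. The macrophage and blood list had 0 probes.

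Muscle markers were set beside the binding proteins. All 3 slow and oxidative markers with a probe, Myh7, the oxygen store Mb and the oxidase subunit Cox4i1, were above the bound on all 6 arrays. So were the 3 fast myosins Myh1, Myh2 and Myh4, and 47.5% of all 223 probes. Detection therefore does not tell slow from fast muscle. The mean level of the slow and oxidative markers was highest in control 2, at 6.73, and lowest in control 5, at 5.56. With Fabp4 their r was 0.933 for Myh7, 0.853 for Mb and 0.816 for Cox4i1, and with Fabp3 it was 0.437, 0.754 and 0.581 in the same order (exact permutation p after adjustment of at least 0.205 for these 6 relations). Without controls 2 and 5, which lay farthest from the median of Fabp4, the r with Fabp4 was 0.964 for Myh7, -0.000637 for Mb and 0.324 for Cox4i1. Without controls 2 and 3, farthest from the median of Fabp3, the r with Fabp3 was -0.664, -0.199 and -0.176. The difference between the correlations with Fabp4 and with Fabp3 was not tested, and the part of muscle, endothelial or adipose RNA in the Fabp4 signal was not tested.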

How the data were processed

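The deposited table held 1 intensity per probe and array, on a linear scale with values below 0. The scanner, the background subtraction and any scaling by the authors were not given in the sources used here, and array sums of the deposited intensities differed 4.03-fold. Per the labels, each of the 6 samples is a control. Arrays give no counts, and their number limits the precision. Probes were named through the platform annotation, and all 6 gene identifiers matched the GRCm38.p6 gene table with the same symbols.

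Probes above 0 on all 6 arrays were taken to log2 with no pseudocount, probes of 1 gene were averaged and each array was centred on its median, which left 152 genes and unnamed probes. Spread was tested in R 4.3.3 with the packages limma (3.58.1) and statmod (1.5.0), as a one-sided F test with an intercept only and a robust prior with intensity trend, of 6.12 degrees of freedom. Correlations used exact permutation over 720 pairings in Python 3.11.15, taking as p the share of pairings with an absolute correlation at least as large. Thresholds were 0.05 after Benjamini-Hochberg adjustment. Both scripts were tested on simulated data.

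The named genes were the members, the 3 named genes outside the members with the highest r with each, and members of the fixed lists. Members and lists were chosen with earlier results of these data known. The alternatives were 4 other scalings, a noise-bound filter, a filter of 4 arrays, an added noise bound, other priors, rho, other noise bounds and each replicate left out.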

Additional observations from a re-analysis of the deposited data

How the results depend on the processing

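The Pearson's r of Cd36 and Lpl turned negative after quantile normalization (-0.394), after cyclic loess (-0.470), with centring on genes above the noise bound (-0.0155), with the noise-bound filter (-0.0155) and with the noise bound added (-0.125), and that of Fabp4 and Pparg was 0.344 without centring. Over the arrays left out in turn, r ran from -0.0185 to 0.857 for Cd36 and Fabp3, from -0.0823 to 0.930 for Cd36 and Fabp4, from -0.375 to 0.780 for Cd36 and Lpl, from -0.437 to 0.653 for Fabp3 and Fabp4 and from -0.239 to 0.674 for Vldlr and Fabp3. Of the 130 values of r of member pairs under an alternative, 11 changed sign and 0 passed the threshold (lowest adjusted exact permutation p 0.104). The number of positive pairs was 5 to 10 with 1 array left out, and 5 without control 2. The genes past the threshold for excess spread numbered 2, but 0 under either of the quantile and cyclic loess normalizations, the noise-bound filter and the added noise bound, 0 with a prior that lacked robust estimation or the trend, and 0 to 2 with 1 array left out; 0 of these were members in any of the 15 alternatives (lowest adjusted p of a member in limma 0.788). The members highest in control 2 numbered 0 without centring. Member pairs at an unadjusted exact permutation p under 0.05 numbered 7 without centring, 3 with the looser filter and 0 to 3 with 1 array left out, against 1. The alternatives for this count, for the members highest in control 2, for relations with genes other than members and for marker list counts were chosen after seeing the data. The cause of these shifts was not tested. The mean log2 ratio of Fabp3 to Fabp4 was 0.64 after quantile normalization and 0.55 to 0.88 with 1 array left out. The SD of the ratio over the 6 arrays was 0.67. Under the other noise bounds the same count of 5 of 6 members passed on every array, and Lipe passed on 1 array when the bound was 3 times the root mean square of the values at or below 0. No paired analysis was possible because the labels define a single group. Signal over background limits what can be said of Lipe.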

Other observations

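The fast myosins Myh1, Myh2 and Myh4, motor proteins of fast fibres, were measured on all 6 arrays and set beside the members. Lpl had a positive r with all 3, from 0.643 for Myh1 to 0.982 for Myh4 (0.483 after cyclic loess normalization). Cd36 had -0.537, -0.0308 and 0.200 with Myh1, Myh2 and Myh4. Adjusted exact permutation p was at least 0.200 for these 6 relations. Vldlr and Fabp4 also had a positive r with all 3, and Fabp3 with 2, so a positive r was not particular to Lpl. With the slow myosin Myh7, Lpl had r = 0.898. The fibroblast markers with a probe were 2 of 7, Pdgfra and Fn1. With Cd36 they had r of -0.720 and -0.565, and with Fabp4 0.0718 and 0.197, with adjusted exact permutation p of at least 0.406. Pdgfra lay below the noise bound in control 2, at 0.387 times its value, where Cd36 was highest. The mean level of Pdgfra and Fn1 was highest in control 1, at 1.29, where Cd36 was lowest, against -0.41 to 0.25 on the other arrays. Fn1 had more than 1 probe, and at least 1 of them lay above the bound on all 6 arrays. The level of Fn1 alone, averaged over its probes above 0 on all 6 arrays, was 3.01 in control 1 and 1.86 to 2.58 on the others.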
